A study of Schizosaccharomyces pombe with 4 samples.

Results

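The 171 nuclear tRNA genes of fission yeast and the 24 introns that the deposited table places in them, 195 of its 12383 loci, were compared between cells without the lariat debranching enzyme Dbr1 and wild-type cells. Genes were taken by their systematic identifier, in which the amino acid is written, and introns by the gene in which they lie. The dbr1Δ strain came from a deletion collection, and the wild type was strain ED668. Both strains were h+ ade6-M216 ura4-D18 leu1-32, and both were grown in rich medium (YES, yeast extract with supplements) at 32 °C to an OD600 of 0.4. The dbr1Δ strain was described by the study as slow growing. It was 1 strain from the collection, with 2 cultures of each strain grown and processed separately. Total RNA was depleted of rRNA and sequenced with strand information on the Illumina platform in reads of 49 bases. Total counts over all loci were 24205354 and 19780858 in the dbr1Δ libraries and 25169220 and 36062720 in the wild-type libraries.

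Transfer RNAs are transcribed by RNA polymerase III as precursors with a leader, a trailer and, in some genes, a short intron next to the anticodon. RNase P and RNase Z trim the ends, the tRNA splicing endonuclease cuts out the intron as a linear piece, and a ligase joins the exons. The spliceosome instead releases introns as branched lariats, which Dbr1 opens for degradation. Introns of tRNA genes therefore leave the precursor without passing through the substrate of Dbr1.

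The sequences decide what could be counted at each gene, since the authors removed reads that matched multiple loci. As annotated, the 171 genes held 64 different mature sequences (the gene without its intron), 32 of them found in a single gene and the most common in 9 genes. SPBTRNALYS.07 and SPBTRNASER.06 count among the 32 only through their annotated introns, since their full sequences also occur in other genes. Neither they nor SPBTRNAASP.05 could be given an anticodon from the annotated sequence. All 171 genes lay at the same coordinates and on the same strand in the RefSeq annotation of assembly ASM294v3, from which the sequences below were read. That annotation places introns in 44 tRNA genes, 20 more than the table. Exons of these genes were 36 to 46 bases long, shorter than a read, so that a spliced tRNA read needs a junction in the authors' set. The 3 methionine genes shown first have 1 mature sequence and differ only in their introns (in capitals), of which only that of SPBTRNAMET.05 was in the table.

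SPBTRNAMET.05: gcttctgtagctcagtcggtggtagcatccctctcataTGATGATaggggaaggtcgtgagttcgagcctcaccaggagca

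SPATRNAMET.02: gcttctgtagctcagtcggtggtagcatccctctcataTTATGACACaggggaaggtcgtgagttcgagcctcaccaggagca

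SPBTRNAMET.04: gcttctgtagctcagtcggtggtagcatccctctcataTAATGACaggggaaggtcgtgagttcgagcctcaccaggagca

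SPBTRNAMET.05 lies on chromosome II at chrII:1598075-1598155 (minus strand), SPATRNAMET.02 at chrI:1484979-1485061 (minus strand) and SPBTRNAMET.04 at chrII:658451-658531 (plus strand). A spliced read from any of these 3 genes has the sequence of the SPBTRNAMET.05 junction and would be placed there. The leucine genes SPBTRNALEU.05 (chrII:1402444-1402541, minus strand) and SPATRNALEU.02 (chrI:2802761-2802858, minus strand) form a second such pair. Their introns, again in capitals, differ at 2 of 16 bases, and only the first was in the table.

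SPBTRNALEU.05: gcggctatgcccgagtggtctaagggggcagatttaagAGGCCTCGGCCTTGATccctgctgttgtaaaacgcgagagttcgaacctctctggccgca

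SPATRNALEU.02: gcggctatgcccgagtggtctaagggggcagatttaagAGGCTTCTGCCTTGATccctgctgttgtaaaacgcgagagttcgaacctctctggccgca

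The other 3 tRNA introns with enough reads for a test, in capitals, lie in SPBTRNAARG.05 (chrII:1160893-1160994, minus strand), SPBTRNATYR.04 (chrII:3814558-3814641, plus strand) and SPCTRNALYS.12 (chrIII:1475034-1475116, plus strand). They are shown because reads across their ends or their junction carry the comparison of splicing.

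SPBTRNAARG.05: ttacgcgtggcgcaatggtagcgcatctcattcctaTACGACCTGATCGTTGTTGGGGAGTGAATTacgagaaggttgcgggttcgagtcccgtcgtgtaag

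SPBTRNATYR.04: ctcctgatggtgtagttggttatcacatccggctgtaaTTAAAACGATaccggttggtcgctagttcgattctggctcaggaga

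SPCTRNALYS.12: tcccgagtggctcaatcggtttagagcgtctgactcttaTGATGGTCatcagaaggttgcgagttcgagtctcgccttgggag

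The mature sequence of SPBTRNAARG.05 occurs once in the genome. That of SPBTRNATYR.04 differs at 1 of 74 bases from the sequence of SPATRNATYR.01, within the 3 mismatches that the authors allowed. The mature sequence of SPCTRNALYS.12 is shared by 8 lysine genes, and no 49-base window across its junction is unique.

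The glutamine genes SPBTRNAGLN.01 (plus strand, printed with 20 bases on each side as chrII:257434-257545) and SPBTRNAGLN.03 (minus strand, printed as chrII:258828-258939) have the anticodon CTG and are identical over their 72 bases. They have no intron, and the flanks, in capitals, are all that separates them.

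SPBTRNAGLN.01: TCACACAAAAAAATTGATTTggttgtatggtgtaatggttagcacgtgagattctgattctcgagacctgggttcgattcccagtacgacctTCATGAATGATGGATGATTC

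SPBTRNAGLN.03: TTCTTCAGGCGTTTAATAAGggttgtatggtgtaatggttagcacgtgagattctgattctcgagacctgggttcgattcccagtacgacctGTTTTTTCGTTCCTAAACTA

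None of the 24 windows of 49 bases inside either gene is unique, so a counted read reached into a flank, unless a mismatch placed it. This held for 95 of the 171 genes, where unique windows were found only with flanking bases. A further 39 genes had no unique window even there and were at 0 counts in all libraries. The remaining 37 genes had at least 1 unique window inside and held 75.4% of all tRNA gene counts.

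Among the 18 genes without an intron and with a unique window inside, 3 arginine genes are shown because they differ in direction below. Capitals mark the anticodon. SPBTRNAARG.04 (chrII:326652-326724, minus strand) and SPCTRNAARG.08 (chrIII:578847-578919, plus strand) read TCT and differ at 1 of 73 bases, and SPCTRNAARG.10 (chrIII:1067092-1067164, minus strand) reads TCG.

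SPBTRNAARG.04: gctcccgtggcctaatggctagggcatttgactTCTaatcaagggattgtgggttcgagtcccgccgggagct

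SPCTRNAARG.08: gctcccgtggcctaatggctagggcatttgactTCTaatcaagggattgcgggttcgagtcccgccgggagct

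SPCTRNAARG.10: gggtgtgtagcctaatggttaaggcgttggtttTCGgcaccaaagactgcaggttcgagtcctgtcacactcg

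In fission yeast, serine genes can stand directly before a methionine gene and be transcribed with it as a single precursor. The gene pairs from SPCTRNASER.11 to SPCTRNAMET.07 (chrIII:1689713-1689888, plus strand) and from SPATRNASER.01 to SPATRNAMET.01 (chrI:1096369-1096545, plus strand) have this arrangement. Capitals mark the serine intron, found only in the RefSeq annotation, and the spacer of 7 bases between the genes.

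SPCTRNASER.11 to SPCTRNAMET.07: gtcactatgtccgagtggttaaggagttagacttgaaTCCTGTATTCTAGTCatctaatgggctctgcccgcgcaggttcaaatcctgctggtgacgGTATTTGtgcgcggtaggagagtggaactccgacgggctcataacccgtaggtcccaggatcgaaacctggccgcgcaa

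SPATRNASER.01 to SPATRNAMET.01: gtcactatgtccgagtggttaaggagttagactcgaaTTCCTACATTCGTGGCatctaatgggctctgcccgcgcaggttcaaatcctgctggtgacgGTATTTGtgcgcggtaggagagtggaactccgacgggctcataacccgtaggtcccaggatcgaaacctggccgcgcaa

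Before the tRNA genes were compared, the deleted gene was checked. Counts at dbr1 (SPAC17A5.02c) were 207 and 164 in the dbr1Δ libraries and 1535 and 1799 in the wild-type libraries, a change of -2.77 on the log2 scale (standard error 0.12, edgeR adjusted p = 3.80e-07). The gene was thus low but not at 0 in the strain labelled dbr1Δ. Values below are normalised read counts (CPM, counts scaled to a common library size) after TMM scaling over all loci. Loci that reached 10 counts in 2 or more libraries were tested, and called with an edgeR quasi-likelihood adjusted p under 0.05 (over all 9518 loci tested) and a change of over 2-fold. The scaling sets the level around which tRNA genes are compared. With factors from transcripts alone, the median log2 fold change of all tested transcripts was -0.01, against -0.18 with the joint factors.

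Nuclear tRNA genes received 135973 and 212048 counts in the dbr1Δ libraries and 138081 and 198699 in the wild-type libraries. They made up 0.616% and 1.17% of transcript counts in dbr1Δ and 0.560% and 0.562% in wild type. The wild-type libraries were nearly equal, while dbr1Δ replicate 2 stood apart from dbr1Δ replicate 1. The mean share was 0.894% ± 0.393 in dbr1Δ and 0.561% ± 0.0020 in wild type (SD, n = 2 each), with p = 0.33 in a two-sided exact permutation test, the smallest value that 2 against 2 libraries can give. The difference of 0.33 percentage points became 0.0554 without dbr1Δ replicate 2. It became 0.0797 without SPBTRNAMET.05, the gene with the most counts (p = 1.0, exact permutation test). The shares were then 0.312% and 0.627% in dbr1Δ and 0.381% and 0.399% in wild type, with dbr1Δ replicate 1 below both wild-type libraries. Mitochondrial tRNAs, set beside them, took 2.87% and 4.62% of transcript counts in dbr1Δ and 1.12% and 1.09% in wild type. Of the 56 tested nuclear tRNA genes, 52 were higher in dbr1Δ replicate 2 than in dbr1Δ replicate 1, with a median ratio of 1.91, against a median of 1.01 over all tested transcripts. Between the wild-type libraries, 38 of the 56 genes were higher in replicate 2, with a median ratio of 1.12. What set the tRNA counts of dbr1Δ replicate 2 apart was not tested. It bears on each result below, which is therefore given by library.

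A few genes held most of the reads. SPBTRNAMET.05 alone took 49.6% and 46.8% of the nuclear tRNA counts in dbr1Δ and 32.1% and 29.2% in wild type. SPBTRNAGLN.01 took 4.18% and 5.64% in dbr1Δ and 26.5% and 25.4% in wild type. The first gene led in every library, while SPBTRNAGLN.01 came next to it in both wild-type libraries and stood behind SPCTRNAARG.10, SPATRNAVAL.01, SPBTRNAGLY.09 and SPATRNAGLY.02 in both dbr1Δ libraries, and also behind SPBTRNALEU.05 in dbr1Δ replicate 1. Per kilobase of gene, SPBTRNAMET.05 stood highest at a mean of 34371 CPM over the 4 libraries, followed by SPBTRNAGLN.01 at 12982, SPATRNAVAL.01 at 9361, SPBTRNAGLY.09 at 7696 and SPCTRNAARG.10 at 6359 CPM per kilobase. At the other end, 51 genes were at 0 in every library, and 39 more had 1 to 9 counts in all. The 3 tryptophan genes were among those at 0. These limits concern reads that could be placed and not the amount of tRNA.

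Of the 56 tested genes, 9 were increased and 11 decreased in dbr1Δ. Of the 11, SPBTRNAARG.07 and SPATRNALYS.01 reached 10 counts only in the wild-type libraries. Among all 6401 tested transcripts, 6.69% were increased and 2.81% decreased. The median log2 fold change of the tRNA genes was -0.25, against -0.18 for all tested transcripts, with a range from -2.10 to 2.33. Without the fold limit, 13 tRNA genes were higher and 13 lower, beside 17.8% and 42.6% of all transcripts. Both dbr1Δ libraries lay above both wild-type libraries for 14 of the 56 genes and below them for 19, beside 27.1% and 55.1% of all tested transcripts. Just past the fold limit lay SPATRNASER.01 at -1.01 and SPBTRNAGLY.04 at 1.07, and just short of it lay SPATRNAARG.01 at -0.95. The counts of called genes rested on the dbr1Δ libraries: 16 were increased and 5 decreased without dbr1Δ replicate 1, and 4 increased and 18 decreased without dbr1Δ replicate 2. Leaving out wild-type replicate 2 gave 8 increased and 5 decreased genes, and leaving out wild-type replicate 1 gave 7 and 10. Scaling on transcripts alone gave 12 increased and 7 decreased.

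**Figure D1:**
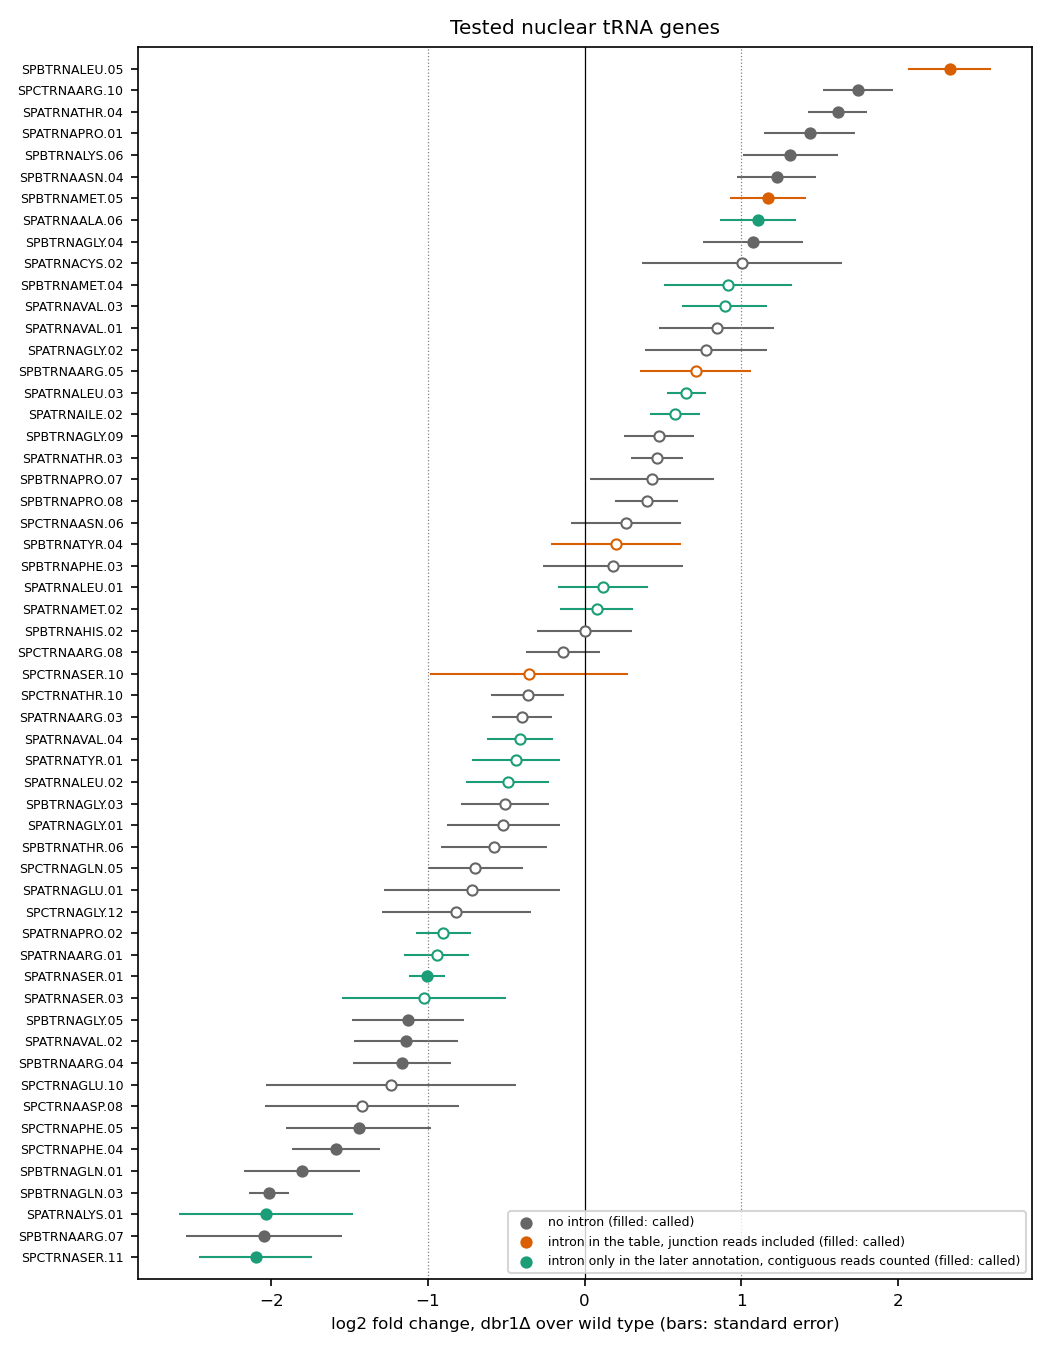
Log2 fold change (dbr1Δ over wild type, x axis) of the 56 tested nuclear tRNA genes, ordered by size, with edgeR standard errors as bars; filled points passed the call and dotted lines mark a 2-fold change. Colour gives the kind of read that the gene's count is taken to hold. The values run from -2.10 for SPCTRNASER.11 to 2.33 for SPBTRNALEU.05, and genes of each kind except those with junction reads lie on both sides among the called.

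Of the 20 called genes, 9 kept their call and direction in all alternatives in which they were tested, scaling on nuclear tRNA genes alone apart. They were SPBTRNALEU.05, SPCTRNAARG.10, SPATRNATHR.04 and SPBTRNALYS.06 among the increased genes and SPBTRNAGLN.01, SPBTRNAGLN.03, SPBTRNAARG.07, SPCTRNASER.11 and SPCTRNAPHE.04 among the decreased. SPBTRNAARG.07 was tested in only 7 alternatives, the others in 9, since it dropped out when a wild-type library was left out. It passed the filter only through the wild-type libraries, so its kept call adds no support. With scaling on nuclear tRNA genes alone, chosen after seeing the data, SPBTRNALEU.05 and the 5 decreased genes passed the call. The increased genes SPCTRNAARG.10 (log2 fold change 1.40, edgeR adjusted p = 0.181), SPATRNATHR.04 (1.31, adjusted p = 0.224) and SPBTRNALYS.06 (1.04, adjusted p = 0.441) did not. The other 11 lost the call in at least 1 alternative, most often with a library left out.

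SPBTRNALEU.05, whose tRNA reads the leucine codon TTA, rose most. It stood at 248 and 463 CPM in dbr1Δ and 79.3 and 62.1 CPM in wild type, a log2 fold change of 2.33 (± 0.26 standard error, edgeR adjusted p = 1.43e-04). Both dbr1Δ libraries lay above both wild-type libraries. Nearly all of its counts were junction reads, which SPATRNALEU.02 could also have given. SPATRNALEU.02 itself, with counts taken to be contiguous reads, had 29 and 29 in dbr1Δ and 40 and 71 in wild type (log2 fold change -0.49, edgeR adjusted p = 0.143).

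SPCTRNAARG.10, an arginine tRNA gene with the anticodon TCG, stood at 517 and 914 CPM in dbr1Δ and 214 and 212 CPM in wild type, a log2 fold change of 1.75 (± 0.22 standard error, edgeR adjusted p = 2.76e-04). The wild-type libraries were nearly equal and the dbr1Δ libraries apart, both above them. SPBTRNAARG.04, with the anticodon TCT, went the other way, at 55.4 and 129 CPM in dbr1Δ and 190 and 223 CPM in wild type (log2 fold change -1.17, edgeR adjusted p = 0.0127). This gene lost its call without dbr1Δ replicate 1, without wild-type replicate 2, with DESeq2 and with scaling on transcripts. SPCTRNAARG.08, 1 base away from it in sequence, was at 12.4 and 18.4 CPM in dbr1Δ and 13.2 and 20.4 CPM in wild type (log2 fold change -0.14, edgeR adjusted p = 0.632). Reads of these near-identical genes cannot be told apart where mismatches are allowed, since none of their inside windows is unique at 3 mismatches.

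SPBTRNAMET.05 carries the anticodon CAT of elongator methionine tRNA in a gene with an intron. It stood at 2683 and 5027 CPM in dbr1Δ and 1788 and 1638 CPM in wild type, a log2 fold change of 1.17 (± 0.24 standard error, edgeR adjusted p = 0.00359). Without dbr1Δ replicate 2 the log2 fold change was 0.68 and the call was lost. The other genes of the same mature sequence gave fewer counts, all taken to be from contiguous reads. SPATRNAMET.02 had 10.1 and 18.05 CPM in dbr1Δ and 13.4 and 13.1 CPM in wild type (log2 fold change 0.08, edgeR adjusted p = 0.797). SPBTRNAMET.04 had 6.97 and 20.3 CPM in dbr1Δ and 7.19 and 7.06 CPM in wild type (log2 fold change 0.92, edgeR adjusted p = 0.0846). For both genes the groups overlapped, because dbr1Δ replicate 1 was below a wild-type library. SPBTRNAMET.05 held 99.1% of the counts of the 3 genes.

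The remaining increased genes had lower levels. SPATRNATHR.04, a threonine tRNA gene with the anticodon CGT, was at 17.8 and 26.4 CPM in dbr1Δ and 7.27 and 7.12 CPM in wild type (log2 fold change 1.62, edgeR adjusted p = 1.72e-04). SPBTRNALYS.06, for lysine, was at 1.63 and 2.48 CPM in dbr1Δ and 0.808 and 0.819 CPM in wild type (log2 fold change 1.31, edgeR adjusted p = 0.00616). These genes have no intron and occur once. All 24 inside windows of SPATRNATHR.04 are unique at 3 mismatches. For SPBTRNALYS.06, 15 of 27 are unique by exact match and 0 at 3 mismatches, so that placement of its reads is less certain. SPATRNAPRO.01 for proline (1.44), SPBTRNAASN.04 for asparagine (1.23), SPATRNAALA.06 for alanine (1.11) and SPBTRNAGLY.04 for glycine (1.07) had the log2 fold changes given beside them, and all 4 lost their call without dbr1Δ replicate 2. In the table, SPATRNAPRO.01 overlaps the protein-coding transcript SPAC630.10 on the same strand, so that its reads are of uncertain origin.

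The glutamine genes with the anticodon CTG fell furthest among the well-covered genes. SPBTRNAGLN.01 stood at 226 and 606 CPM in dbr1Δ and 1478 and 1428 CPM in wild type, a log2 fold change of -1.80 (± 0.37 standard error, edgeR adjusted p = 0.00331). SPBTRNAGLN.03 stood at 14.3 and 17.2 CPM in dbr1Δ and 56.9 and 69.5 CPM in wild type, a log2 fold change of -2.02 (± 0.13 standard error, edgeR adjusted p = 4.12e-06). In both genes each dbr1Δ library was below each wild-type library. Apart from mismatches, their counts come from reads that reach into the flanks, as the sequences above show. Over the alternatives, the log2 fold change of SPBTRNAGLN.03 stayed between -2.15 and -1.84, while that of SPBTRNAGLN.01 was -1.21 without dbr1Δ replicate 1 and -2.65 without dbr1Δ replicate 2. The glutamine gene SPCTRNAGLN.05, with the anticodon TTG, had 134 and 217 counts in dbr1Δ and 272 and 531 in wild type (log2 fold change -0.70, edgeR adjusted p = 0.0773).

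**Figure D2:**
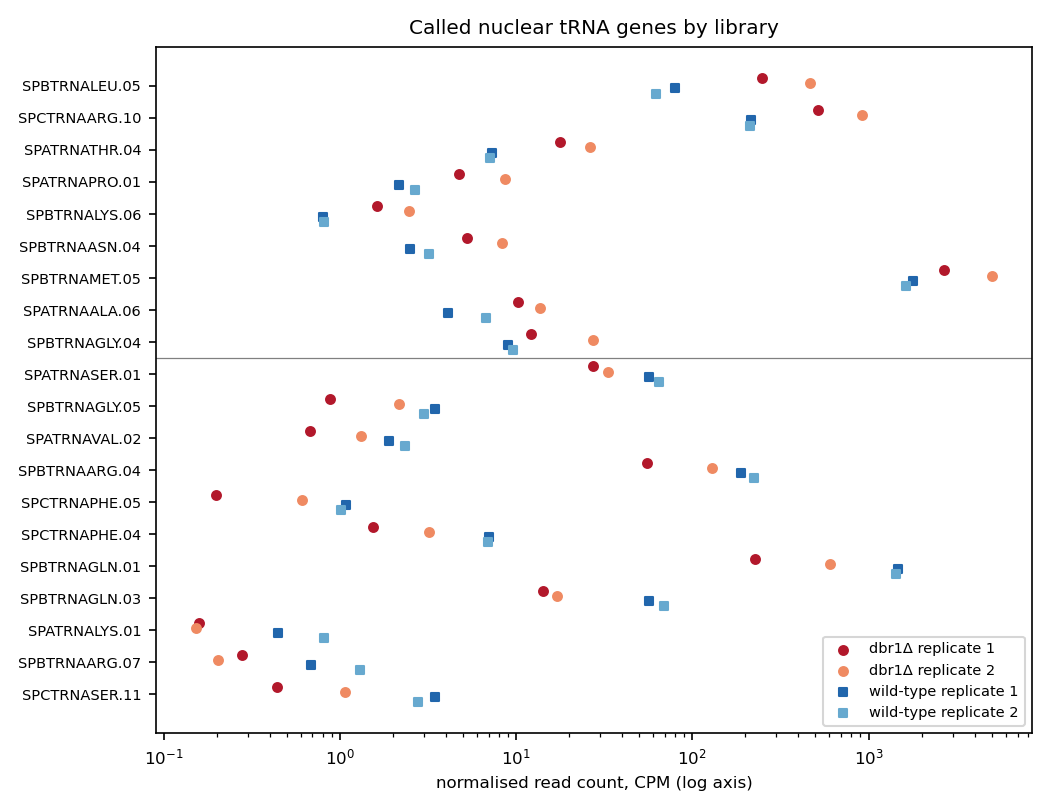
Normalised read count (CPM, log axis) of the 20 called nuclear tRNA genes in each library, with dbr1Δ libraries as circles and wild-type libraries as squares; the grey line parts the 9 increased genes above from the 11 decreased genes below. No called gene has overlapping strains, and dbr1Δ replicate 2 is the higher dbr1Δ library for all but SPATRNALYS.01 and SPBTRNAARG.07.

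Another family with 1 mature sequence did not pass the test. The glycine genes with the anticodon GCC number 8, and 3 of them were tested. SPATRNAGLY.02 was at 237 and 612 CPM in dbr1Δ and 187 and 308 CPM in wild type (log2 fold change 0.78, edgeR adjusted p = 0.121). SPATRNAGLY.01 (-0.52) and SPBTRNAGLY.03 (-0.51) had log2 fold changes of the other sign, with edgeR adjusted p of 0.245 and 0.152. Of the 5 genes with the most counts, SPATRNAVAL.01 for valine was at 485 and 1246 CPM in dbr1Δ and 566 and 399 CPM in wild type (log2 fold change 0.84, edgeR adjusted p = 0.0810). SPBTRNAGLY.09, for glycine with the anticodon CCC, was at 485 and 787 CPM in dbr1Δ and 382 and 531 CPM in wild type (log2 fold change 0.48, edgeR adjusted p = 0.0992). In both, the strains overlapped.

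Decreased genes with few counts were SPCTRNASER.11, SPBTRNAARG.07, SPATRNALYS.01, SPCTRNAPHE.04, SPCTRNAPHE.05, SPATRNAVAL.02 and SPBTRNAGLY.05. SPCTRNASER.11 had 11 and 21 counts in dbr1Δ and 86 and 99 in wild type (log2 fold change -2.10, edgeR adjusted p = 0.00131). Its count was taken to come from contiguous reads, which can hold its intron, since the deposited table places no intron in it. SPATRNASER.01, the other serine gene placed before a methionine gene, was at 27.3 and 33.5 CPM in dbr1Δ and 56.5 and 65.1 CPM in wild type (log2 fold change -1.01, edgeR adjusted p = 1.40e-04). SPATRNASER.03, which also has this arrangement, had 4 and 10 counts in dbr1Δ and 15 and 24 in wild type (log2 fold change -1.02, edgeR adjusted p = 0.125). It differs from SPCTRNASER.11 at 1 of 82 mature bases and at 0 intron bases. In both genes, 0 inside windows are unique at 3 mismatches, so reads inside them cannot be told apart where mismatches are allowed. The methionine genes behind the serine genes had too few counts for a test. SPCTRNAPHE.04, for phenylalanine, was at 1.55 and 3.19 CPM in dbr1Δ and 6.98 and 6.98 CPM in wild type (log2 fold change -1.59, edgeR adjusted p = 0.00157). SPBTRNAARG.07 had 7 and 4 counts in dbr1Δ and 17 and 46 in wild type. SPATRNALYS.01 had 4 and 3 counts in dbr1Δ and 11 and 29 in wild type. Both reached 10 counts only in the wild-type libraries. They thus passed the filter only through the strain in which they were high, which favours a lower value in dbr1Δ.

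The tRNA genes were also described by the kind of read taken to be behind each count, beside 6.69% increased and 2.81% decreased among all tested transcripts. Of the 5 tested genes whose intron was in the table, so that junction reads were counted, 2 were increased and 0 decreased by edgeR (2 higher and 0 lower at an unadjusted p under 0.05), with a median log2 fold change of 0.71. Of the 16 tested genes with an intron only in the RefSeq annotation, 1 was increased and 3 were decreased, with a median of -0.42. Of the 35 tested genes without an intron, 6 were increased and 8 decreased. Among these, the 18 with a unique window inside had 6 increased and 2 decreased and a median of 0.47, and the 17 without one had 0 increased and 6 decreased and a median of -0.72. In these 17 genes, 0 were higher and 7 lower at an unadjusted p under 0.05 by edgeR, and DESeq2 gave 0 increased and 5 decreased. Among all 6401 tested transcripts, 1250 were higher and 2855 lower at that unadjusted p. For them DESeq2 gave 390 increased and 182 decreased. DESeq2 gave 2 increased and 0 decreased among the 5 genes with junction reads. Windows were compared here by exact match, whereas the authors allowed 3 mismatches, and at 3 mismatches only 6 of the 18 genes had a unique window inside. These 6 had 3 increased and 0 decreased by edgeR (3 higher and 0 lower at an unadjusted p under 0.05, and 3 increased and 0 decreased by DESeq2) and a median log2 fold change of 1.14. The other 12 had 3 increased and 2 decreased and a median of 0.02. This is a description of genes that share the libraries and their scaling, and the differences between the kinds were not tested. The decreased genes counted here include SPBTRNAARG.07 and SPATRNALYS.01, which passed the count filter only through the wild-type libraries.

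Summed by amino acid, 19 of 20 isotypes could be tested, and 3 were increased and 3 decreased, beside 6.65% and 2.70% of all transcripts in the same fit. The increased isotypes were leucine (log2 fold change 2.01, edgeR adjusted p = 1.53e-04), methionine (1.16, adjusted p = 0.00316) and alanine (1.08, adjusted p = 0.00475). The decreased isotypes were glutamine (-1.80, adjusted p = 0.00228), phenylalanine (-1.11, adjusted p = 0.00965) and serine (-1.01, adjusted p = 1.68e-04). Each sum rested on few genes: 1 gene held 86.9% of leucine, 99.1% of methionine, 96.2% of alanine, 94.8% of glutamine, 66.4% of phenylalanine and 92.1% of serine counts. Arginine (0.86), isoleucine (0.57) and threonine (0.69) were higher at an adjusted p under 0.05 without reaching a 2-fold change. Glutamine stood at 246 and 635 CPM in dbr1Δ and 1546 and 1514 CPM in wild type, and leucine at 274 and 501 CPM in dbr1Δ and 103 and 89.4 CPM in wild type. Glutamine kept its call in every alternative, and leucine in every one but scaling on tRNA genes alone (log2 fold change 1.36, edgeR adjusted p = 0.326). The other 4 isotypes lost the call with that scaling and with libraries left out. Methionine lost it without dbr1Δ replicate 2 (log2 fold change 0.68), and alanine without dbr1Δ replicate 2 (0.88) or wild-type replicate 1 (0.79). Phenylalanine and serine lost it with scaling on transcripts and without dbr1Δ replicate 1 (-0.58 and -0.79), and also without 1 of the wild-type libraries. Without dbr1Δ replicate 1 the counts were 6 increased and 1 decreased, and without dbr1Δ replicate 2 they were 1 and 5.

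**Figure D3:**
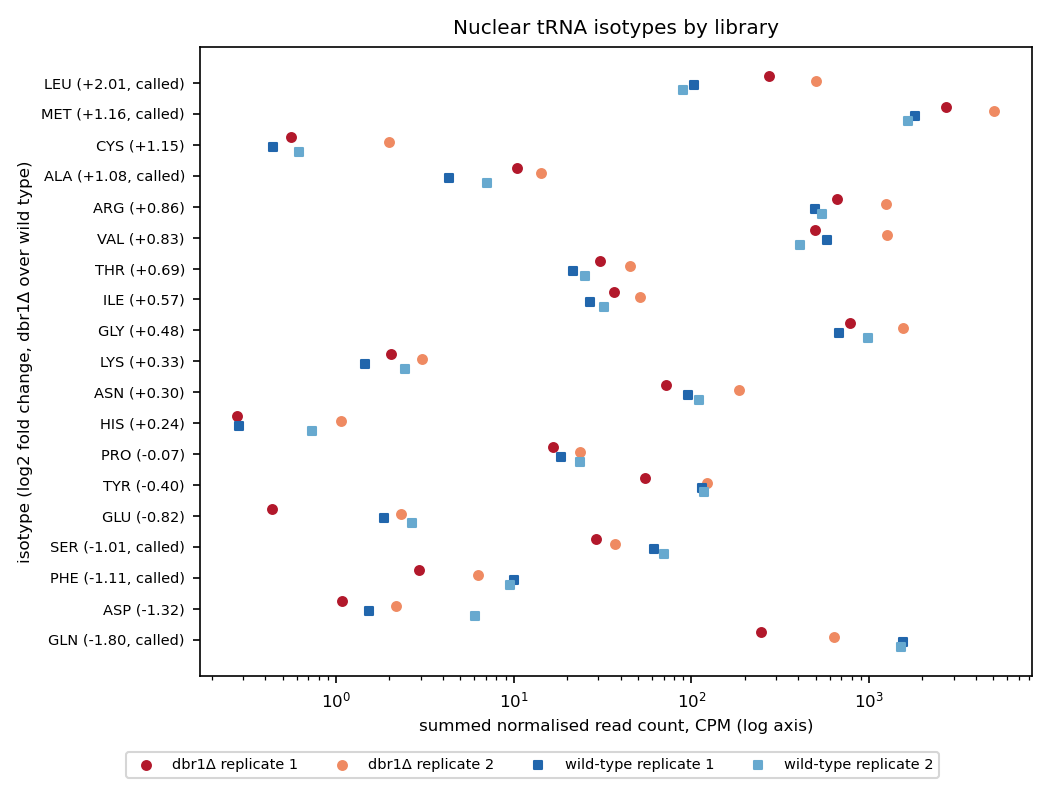
Summed normalised read count (CPM, log axis) of the 19 tested nuclear tRNA isotypes in each library, with dbr1Δ libraries as circles and wild-type libraries as squares and the log2 fold change in brackets. The strains part without overlap for the called isotypes, from leucine at 2.01 to glutamine at -1.80, and also for arginine, isoleucine and threonine. They overlap for all other tested isotypes.

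Introns of tRNA genes gave few reads. Their lengths in the table were 7 to 30 bases, so a read that holds such an intron also holds exon bases. Of the 24, 15 were at 0 in all libraries and 5 were tested. By edgeR, 0 were increased and 1 was decreased (1 higher and 1 lower at an unadjusted p under 0.05, and 0 increased by DESeq2), with a median log2 fold change of -0.03. Among all 3117 tested introns, 53% were increased and 1.32% decreased, and the median of nuclear introns outside tRNA genes was 1.25. At an unadjusted p under 0.05 by edgeR, 1872 of 3112 introns outside nuclear tRNA genes were higher and 106 lower. The paper reports that the rise was biased toward long introns and that lariats of short introns were recovered less well. Introns as short as those of tRNA genes were not compared separately. The count of an intron joins the reads inside it with those that cross from the upstream exon into it (EI reads).

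The longest, the intron of SPBTRNAARG.05 (chrII:1160929-1160958), had most counts, 4124 and 4362 in dbr1Δ and 3848 and 5565 in wild type. In CPM it was at 164 and 221 in dbr1Δ and 155 and 157 in wild type, a log2 fold change of 0.30 (± 0.13 standard error, edgeR adjusted p = 0.0713). The intron of SPBTRNAMET.05 was at 11.3 and 12.4 CPM in dbr1Δ and 15.1 and 12.6 CPM in wild type (log2 fold change -0.22, adjusted p = 0.195 by edgeR). That of SPBTRNATYR.04 was at 9.67 and 21.95 CPM in dbr1Δ and 15.0 and 13.05 CPM in wild type (log2 fold change 0.16, adjusted p = 0.682 by edgeR). That of SPBTRNALEU.05 had 27 and 20 counts in dbr1Δ and 28 and 36 in wild type (log2 fold change -0.03, adjusted p = 0.950 by edgeR). The intron of SPCTRNALYS.12 had 64 and 52 counts in dbr1Δ and 165 and 369 in wild type, a change of -1.73 on the log2 scale (± 0.25 standard error, adjusted p = 4.76e-04 by edgeR). Most of these were EI reads, 60 and 46 in dbr1Δ and 155 and 342 in wild type, and without them the log2 fold change was -1.39 and the call was lost (adjusted p = 0.0622). Only 1 of its 48 boundary windows is unique in the genome.

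Junction reads (JR, spliced) and EI reads (unspliced) of the same intron give its splicing efficiency, log2 of JR plus 1 over EI plus 1. For SPBTRNALEU.05, JR numbered 6223 and 9138 in dbr1Δ and 1964 and 2197 in wild type, while EI reads numbered 27 and 16 in dbr1Δ and 23 and 32 in wild type. The splicing efficiency was 7.80 and 9.07 in dbr1Δ and 6.36 and 6.06 in wild type, a difference of 2.23. The Cochran-Mantel-Haenszel (CMH) test over the replicate numbers gave an adjusted p of 3.68e-14. This test takes reads as independent and does not see the spread between cultures. In an edgeR test of the interaction between read class and strain, which does, the adjusted p was 3.51e-06.

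For SPBTRNAMET.05, JR numbered 67184 and 98977 in dbr1Δ and 43902 and 57531 in wild type, with 131 and 118 EI reads in dbr1Δ and 181 and 197 in wild type. The splicing efficiency was 8.99 and 9.70 in dbr1Δ and 7.91 and 8.18 in wild type, a difference of 1.30 (adjusted p = 1.34e-27 by CMH and 1.95e-04 by the edgeR interaction). For both introns the spliced reads can come from genes of the same mature sequence. Of the 48 windows that an EI read can cover in each gene, all are unique by exact match and only 7 at 3 mismatches, so that reads of the precursor may have been removed or placed at a near-identical gene. The ratio therefore sets the spliced product of several genes against EI reads that could be placed only in part. SPBTRNAARG.05 has no such partner, and all 48 of its EI windows are unique at 3 mismatches. Its JR numbered 1662 and 3416 in dbr1Δ and 1702 and 2711 in wild type, and its EI reads 626 and 679 in dbr1Δ and 809 and 1308 in wild type. The splicing efficiency was 1.41 and 2.33 in dbr1Δ and 1.07 and 1.05 in wild type, a difference of 0.81 (adjusted p = 6.33e-50 by CMH and 0.0378 by the edgeR interaction). The larger part came from dbr1Δ replicate 2, and replicate 1 alone gave a difference of 0.34. SPBTRNATYR.04 had 85 and 205 JR in dbr1Δ and 140 and 214 in wild type, against 216 and 394 EI reads in dbr1Δ and 337 and 379 in wild type. Its splicing efficiency was -1.34 and -0.94 in dbr1Δ and -1.26 and -0.82 in wild type, a difference of -0.10 (adjusted p = 0.764 by CMH and 0.940 by the edgeR interaction). All 26 of its junction windows are unique by exact match and 0 at 3 mismatches. Of its 48 EI windows, 10 are unique at 3 mismatches, so its reads too may have been removed or placed at a near-identical gene. SPCTRNALYS.12 had 0 JR in every library, so no test could be made.

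Of the 4 tRNA introns that the CMH test could compare, 3 thus had a higher splicing efficiency in dbr1Δ. Among all 3570 introns that the CMH test could compare, 0.14% were higher and 21.8% lower, and in the edgeR interaction 0.078% of 3822 were higher and 12.4% lower. The 5 introns higher by CMH were these 3 and int_2390 in SPBC660.16 and int_2592 in SPBC651.02, the last with only 16 and 11 JR in dbr1Δ and 0 and 6 in wild type. The 3 higher in the edgeR interaction were the same 3 tRNA introns. The median difference was -1.24 over the 3566 other introns. Mitochondrial introns, described in the paper as self-spliced, were not left out of them. The nuclear introns among them are removed by the spliceosome, so the background stands almost wholly for another route of splicing.

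**Figure D4:**
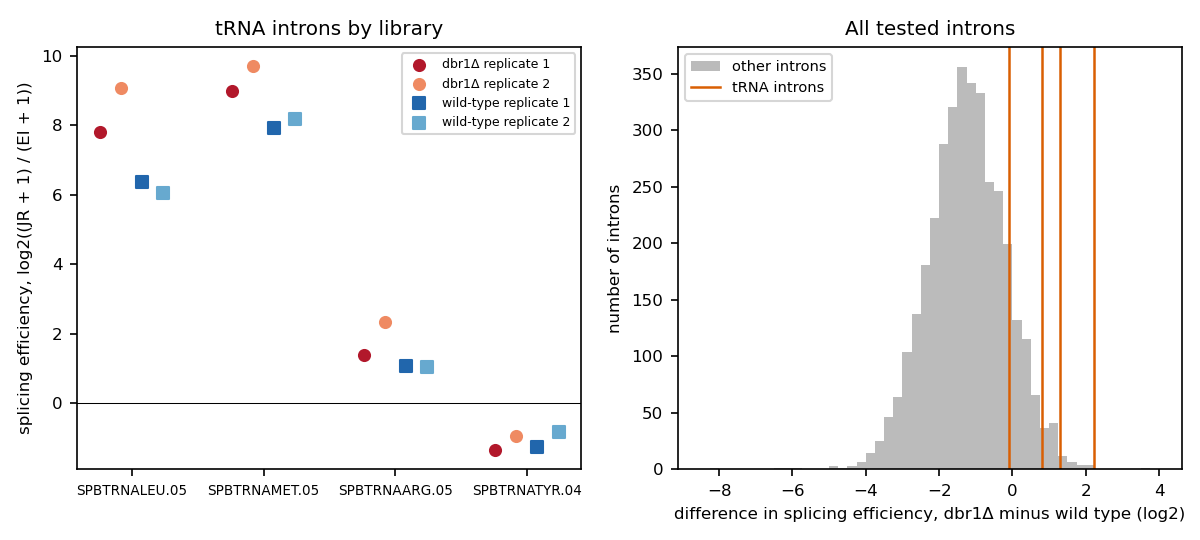
Left, splicing efficiency (log2 of JR plus 1 over EI plus 1, y axis) of the 4 tRNA introns tested by CMH. Each library is shown, dbr1Δ as circles and wild type as squares. Right, differences in splicing efficiency (dbr1Δ minus wild type, log2, x axis) of the 3566 other introns as a histogram of intron numbers and of the 4 tRNA introns as lines, at 2.23, 1.30, 0.81 and -0.10, against a median of -1.24.

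Genes of the tRNA pathway were read from lists of symbols. The share of all transcripts that was lower in dbr1Δ at an adjusted p under 0.05 was 42.6%, and the share that was higher was 17.8%, with a median log2 fold change of -0.18. Of 23 tested genes of tRNA splicing and end processing, 16 were lower and 1 was higher, with a median of -0.49. The symbols pop1, pop3 and lcp1, which in the RefSeq annotation of fission yeast belong to a cullin adaptor, a TORC subunit and a cyclin, were left out. With them, 17 of 26 were lower and 1 higher. The lower genes include the 4 subunits of the tRNA splicing endonuclease, sen2 (-0.56), sen15 (-0.75), sen34 (-0.52) and sen54 (-0.36), and the tRNA ligase trl1 (-0.80), given as log2 fold changes with edgeR adjusted p of 0.00590, 0.00128, 4.49e-04, 0.00284 and 2.31e-05. The RNA subunit of RNase P, rrk1, fell to 1439 and 1500 CPM in dbr1Δ, against 2829 and 2685 CPM in wild type (log2 fold change -0.91). The tRNA 2′-phosphotransferase gene tpt1 and the La protein gene sla1, whose product binds the ends of new RNA polymerase III transcripts, were both at -0.75. The exception was pop7, a protein subunit of RNase P, at 0.53. The list's changes ran from -0.91 to 0.53, short of 2-fold.

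Of 23 genes of RNA polymerase III transcription, 16 were lower and 1 higher at the same threshold, against 42.6% and 17.8% of all transcripts, with a median log2 fold change of -0.41. The largest subunit of the polymerase, rpc1, was at 183 and 172 CPM in dbr1Δ and 294 and 291 CPM in wild type (-0.72), and the TFIIIC subunit sfc6 was at -0.70. The TATA-binding protein gene tbp1 was the one that was higher (0.69). Of 44 genes of tRNA modification, 37 were lower and 0 higher by edgeR at an adjusted p under 0.05, with a median of -0.57. The shares of all transcripts were the same 42.6% and 17.8%. At an unadjusted p under 0.05, 0 of the 44 were higher, beside 1250 of all 6401 tested transcripts. By DESeq2, 0 of the 44 were higher. The symbol mto1, in this annotation a linker of the gamma tubulin complex, was left out, and with it 38 of 45 were lower. Of this list, elp2 of the Elongator complex (-1.02) and the methyltransferase partner trm112 (-1.01) passed the fold limit. The acetylation factor tan1 (-0.96) and the acetyltransferase nat10 (-0.95) followed. With scaling on transcripts alone, the counts of lower and higher genes were 13 and 2, 14 and 2, and 31 and 1 in the 3 lists, in the order given. The 42.6% and 17.8% belong to the joint scaling and are no background for these counts. With scaling on transcripts alone, the median log2 fold change of all tested transcripts was -0.01, and their shares are not given here.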

How the data were processed

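Strand-specific RNA-seq counts of 2 dbr1Δ and 2 wild-type cultures were analysed. Per the study's methods, the authors aligned 49-base reads with Bowtie against Ensembl build EF1 and a set of exon-exon junctions, with up to 3 mismatches, and removed reads matching multiple loci. The deposited values used here are the authors' counts of reads per transcript, per intron and across 5′ exon-intron boundaries, without normalization. The deposited splicing efficiency is the authors' log2 ratio of junction to boundary reads, each plus 1, from which junction reads were recovered (100% whole within 0.01). The deposited log2 RPKM and the authors' own fold changes, p-values and q-values were not used. Transcript and intron counts entered 1 fit with edgeR 4.0.16 (R 4.3.3) after TMM scaling. The filter was 10 counts in 2 libraries, with Benjamini-Hochberg adjustment over 9518 loci and a call at adjusted p under 0.05 and over 2-fold. The CMH test used the same minimum for junction plus boundary reads. P-values measure the spread between separately grown cultures, except those of the CMH test. Alternatives were DESeq2 1.42.0, other scalings, no filter, a replicate block and leaving out each library. Scripts were tested on simulated data with known changes. Named were all called genes, introns and isotypes, the most abundant genes, every tested intron with its host, families with 1 mature sequence, members next to the fold limit, and up to 4 genes of each pathway list. The endonuclease subunits and the other genes named with an adjusted p above 0.05 were chosen after their values were seen. Members and lists were chosen with earlier results of these data known. Of 32, 23 and 51 list symbols, 26, 23 and 45 matched a gene. Of these, 3 and 1 in the first and last list were left out after their values were seen, because the RefSeq product names a protein of another role. Sequences came from RefSeq assembly ASM294v3 (Biopython 1.88), where windows of 49 bases were searched for repeats. The authors' junction set was not available. Counts of the 20 genes with an intron only in the RefSeq annotation were therefore taken to be contiguous reads, which could not be checked. Replicate numbers did not pair the libraries (correlation of deviations -0.022 over 9518 loci).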

Additional observations from a re-analysis of the deposited data

How the results depend on the processing

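Counts of called nuclear tRNA genes depended on single libraries: leaving out 1 library at a time gave 4 to 16 increased genes and 5 to 18 decreased genes, against 9 and 11 with all. For isotypes the ranges were 1 to 6 increased and 1 to 5 decreased, against 3 and 3. With TMM factors from transcripts alone, 7 genes were decreased, and 5 isotypes were increased and 1 was decreased. Without the fold change limit, 6 isotypes were higher. With TMM factors from nuclear tRNA genes alone, an alternative chosen after seeing the data, 1 gene was increased (SPBTRNALEU.05) and 6 were decreased, and 0 isotypes were increased and 1 decreased. The cause was not tested. Without boundary reads, 0 tRNA introns were decreased. A fit with a replicate block gave 9 increased and 12 decreased genes, 4 increased and 4 decreased isotypes and 3 introns with changed splicing efficiency in a quasibinomial fit. It changed no count by over 1.5 times. The difference in the tRNA share ran from 0.0554 to 0.611 percentage points with a library left out. Without SPBTRNAMET.05 it was 0.0797. The rest were not tested: 115 of the 171 genes did not reach the filter, none of them with a unique window inside. Of these, 39 had no unique window even with flanking bases. The others had unique windows with flanking bases, and why they stayed under the filter was not tested.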
